A study of Mus musculus with 18 samples.

Results

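The proteasome genes were every gene of the liver expression table whose symbol starts with Psma, Psmb, Psmc, Psmd, Psme, Psmf or Psmg followed by a digit, 50 of 19057 genes. The rule reads symbols and no measured value, but it was chosen with earlier results of these data known. Of the 50, 47 had a mean of at least 1 RPKM over all libraries and were tested, out of 10204 genes tested. RPKM scales the reads of each gene to gene length and to the library's sequencing output. The 3 genes below that level were Psma8, the testis form of an alpha subunit, with 0.27 to 1.36 RPKM, Psmb11, the thymus form of a beta subunit, with at most 0.01 RPKM, and Psme2b, a copy of Psme2, with 0.16 to 0.56 RPKM. The tested genes comprised 7 alpha and 7 constitutive beta subunits of the core, 3 immunoproteasome subunits, 17 subunits of the regulatory particle, 7 assembly chaperones, 4 activators, 1 inhibitor and Psmc3ip. The last matches the symbol pattern but encodes a protein of meiotic recombination and is no proteasome subunit.

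The proteasome degrades proteins that carry ubiquitin chains. Its barrel-shaped 20S core holds the protease sites inside stacked rings of alpha and beta subunits, and the 19S regulatory particle binds the substrate, removes the ubiquitin, unfolds the chain with a ring of ATPases and feeds it into the core. Under interferon, cells replace the catalytic beta subunits by those of the immunoproteasome, which favours peptides for presentation on MHC class I. When the proteasome is short of capacity, the transcription factor NRF1, encoded by Nfe2l1 and released by the protease DDI2, raises its subunit genes together, and liver depends on this control.

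Liver RNA of ICR mice aged 10 weeks was sequenced in 6 groups of 3 libraries, to ask how diet and streptozotocin (STZ) alter the liver and how transferred gut microbiota changes this. Con mice were the controls, on regular diet and saline. A10 mice received 10 mg/kg of alginate oligosaccharide (AOS), a seaweed-derived sugar polymer fragment. HS mice received a high-fat diet and STZ, which is toxic to insulin-producing cells. HS+A10 mice received diet, STZ and 10 mg/kg AOS. A10-FMT and Con-FMT mice received diet and STZ and then intestinal microbiota from donors dosed with 10 mg/kg AOS or from control donors. All mice of the 4 groups in the study's methods were male. The donor material was pooled, so each recipient group rests on 1 donor pool, and A10 and HS+A10 are known here from their labels alone. Nothing states that the 3 libraries of a group came from separate mice, so p-values measure the spread between these libraries.

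Some libraries stood apart. For genes that differed more than 2-fold between the other libraries of the group, Con replicate 3 lay between them in 98.6% of 140 genes and A10 replicate 3 in 96.3% of 135 genes, against 6.52% to 74.4% for the other 16 libraries. Among the 47 tested proteasome genes they lay between in 26 and 17, within the range of 6 to 30 for the other 16 libraries. Because of the genes that differed more than 2-fold, the spread within Con and A10 may be too small, and the counts below are also given without both. Con-FMT replicate 3 held 23638 RPKM of 14 exocrine pancreas markers, against 14.1 to 50.4 in the other libraries. Hepatocyte markers summed to 49236 to 71719 RPKM in every library, with none of the 8 at 0. RPKM summed over all genes to 692818 to 806937, and the steps between low values put relative depth between 0.946 and 1.05 of the mean. How many reads lie behind these values is unknown, so they carry no counting error here.

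Core subunits were the most abundant class per length. Over all 18 libraries the mean level ran from 46.5 RPKM for Psma5 to 161 RPKM for Psmb3 among the 14 constitutive core genes, and from 29.9 RPKM for Psmd14, the deubiquitinase of the lid, to 80.2 RPKM for Psmd8 among the 17 regulatory particle genes. Immunoproteasome genes lay lower, at 18.3 RPKM for Psmb10, 29.8 for Psmb8 and 32.5 for Psmb9. Assembly chaperones had 5.82 to 17.5 RPKM. The activator genes Psme1 and Psme2, which encode the interferon-inducible PA28 cap of the core, reached 93.8 and 87.4 RPKM.

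The mean level of the regulatory particle genes was higher in HS than in the other groups. The mean of the 17 19S genes was 48.9, 51.7 and 52.2 RPKM in the Con libraries and 57.4, 59.8 and 58.1 RPKM in the HS libraries, so the groups did not overlap. In A10 it was 51.3, 51.0 and 49.6 RPKM, in HS+A10 52.5, 54.7 and 54.9 RPKM, and in A10-FMT 51.6, 45.5 and 44.5 RPKM. Con-FMT lay at 54.7, 52.9 and 53.4 RPKM. HS was the highest group and its lowest library exceeded all 15 others. The median of all tested genes was likewise highest in HS, at 7.96 to 8.215 RPKM, and at most 7.95 RPKM in any other library. The order of the other groups was not the same. A10 had a higher mean of this median (7.50 RPKM) than Con-FMT (7.45 RPKM) but a lower 19S mean. The rank of HS in the 19S mean was thus shared with the tested genes as a whole. The mean of the 14 constitutive 20S genes overlapped between HS (97.2 to 105 RPKM) and Con (89.7 to 98.0 RPKM).

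The ratio of these means within a library does not depend on how the library is scaled. It was 0.545, 0.528 and 0.543 in Con, 0.503, 0.517 and 0.512 in A10, 0.544, 0.603 and 0.598 in HS, and 0.553, 0.554 and 0.568 in HS+A10. The 3 HS+A10 libraries lay above the 3 A10 libraries, whereas HS replicate 1 fell within the range of Con. The A10-FMT libraries, at 0.530, 0.502 and 0.518, lay below every HS library. Con-FMT spread from 0.497 to 0.586 and overlapped with all groups. Because the ratio sums over chosen genes, it is given as a description without a test.

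**Figure D1:**
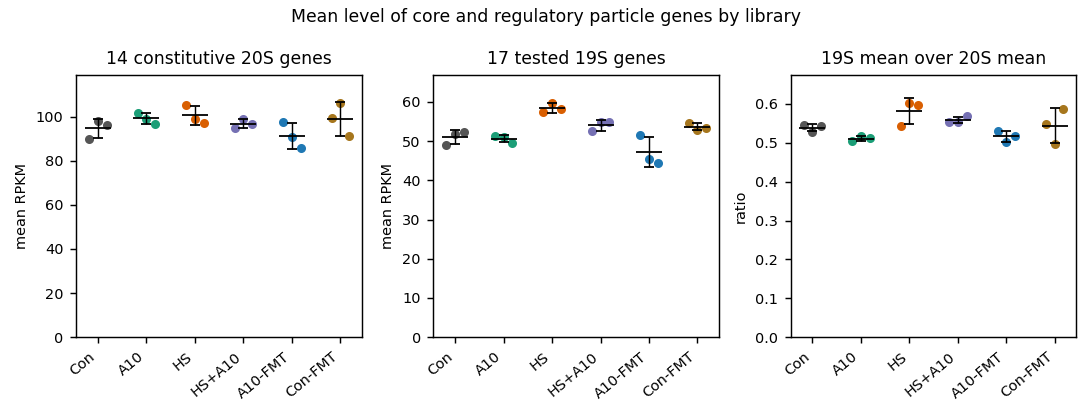
Mean RPKM of the 14 constitutive 20S genes, mean RPKM of the 17 tested 19S genes and the ratio of both, for each of the 3 libraries per group (points), with group mean and SD (bars). The 19S mean lay at 57.4 to 59.8 RPKM in HS, above all other libraries, as the median of all tested genes did (not plotted). The ratio was lower in every A10-FMT library (0.502 to 0.530) than in every HS library (0.544 to 0.603).

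Diet and STZ were followed by higher levels of 11 of 47 proteasome genes in HS against Con and by lower levels of none, in limma's moderated test on log2(RPKM + 1) with a Benjamini-Hochberg adjusted p under 0.05 over all tested genes. The background was 15.9% of all genes called higher and 1.87% called lower, against 23.4% of the proteasome genes called higher. The 11 genes were the inhibitor Psmf1, the chaperone Psmd9, the ATPases Psmc1, Psmc3 and Psmc4, the base scaffold Psmd2, the lid subunits Psmd3 and Psmd13, the activator Psme3, and the catalytic subunits Psmb5 and Psmb9. By class, 6 of 17 regulatory particle genes and 1 of 14 constitutive core genes were called, with a median log2 change of 0.22 and 0.10. The median over all 47 was 0.15 and over all tested genes 0.14, and 39 of 47 proteasome genes and 77.3% of all genes had changes above 0.

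Most of these calls depended on the scaling. With each library scaled to the same median, only Psmf1 was called higher and no gene lower, against 3.90% and 4.76% of all genes, and the median change of the 17 regulatory particle genes was 0.04. Without Con replicate 1, 3 genes were called, without Con replicate 3 or HS replicate 2, 5 genes, and without HS replicate 3, 6 genes. Psmf1, Psmd9 and Psmd2 were among them each time. Shares of all genes called with a library left out are not given, here or below. A change in such a count may thus hold for the whole table.

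Psmf1, which encodes PI31, a protein that inhibits the isolated core, rose most clearly. It had 8.22, 9.62 and 9.21 RPKM in Con and 13.1, 13.2 and 13.3 RPKM in HS. It had 10.7, 9.46 and 9.26 RPKM in A10 and 15.1, 13.7 and 13.6 RPKM in HS+A10. All 6 libraries with diet and STZ but no transfer lay above all 6 libraries without. The log2 change was 0.51 ± 0.088 (SE, limma adjusted p = 0.00213) in HS against Con and 0.48 ± 0.088 (limma adjusted p = 0.00166) in HS+A10 against A10. After median scaling these were 0.34 (adjusted p = 0.00861) and 0.42 (adjusted p = 0.000704), with limma.

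Psmd9, a chaperone that helps to build the ATPase ring of the base, followed the same pattern. Its levels were 6.74, 7.16 and 6.61 RPKM in Con, 10.6, 10.3 and 8.03 RPKM in HS, 7.46, 7.15 and 6.83 RPKM in A10, and 9.11, 10.9 and 9.13 RPKM in HS+A10. In neither comparison did the groups overlap, and HS replicate 3 was closest to the controls. The log2 change was 0.43 ± 0.090 (limma adjusted p = 0.0063) in HS against Con and 0.39 ± 0.090 (limma adjusted p = 0.00662) in HS+A10 against A10. After median scaling the latter was called (adjusted p = 0.00915, limma) and the former was not (adjusted p = 0.0597, limma).

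Psmd13, a structural subunit of the lid, had 31.8, 28.8 and 31.6 RPKM in Con and 40.4, 38.9 and 36.1 RPKM in HS. It had 28.6, 30.6 and 31.2 RPKM in A10 and 41.9, 38.9 and 40.4 RPKM in HS+A10. Neither pair of groups overlapped. The log2 change was 0.32 ± 0.089 in HS against Con (limma adjusted p = 0.0252) and 0.41 ± 0.089 in HS+A10 against A10 (limma adjusted p = 0.00444), and only the latter was called after median scaling (0.35, adjusted p = 0.00756). Psmd2, a large scaffold subunit of the base, changed less, by 0.28 ± 0.070 (limma adjusted p = 0.0162) and 0.21 ± 0.070 (limma adjusted p = 0.0454), and neither was called after median scaling (0.0921 and 0.15, limma adjusted p = 0.414 and 0.110).

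**Figure D2:**
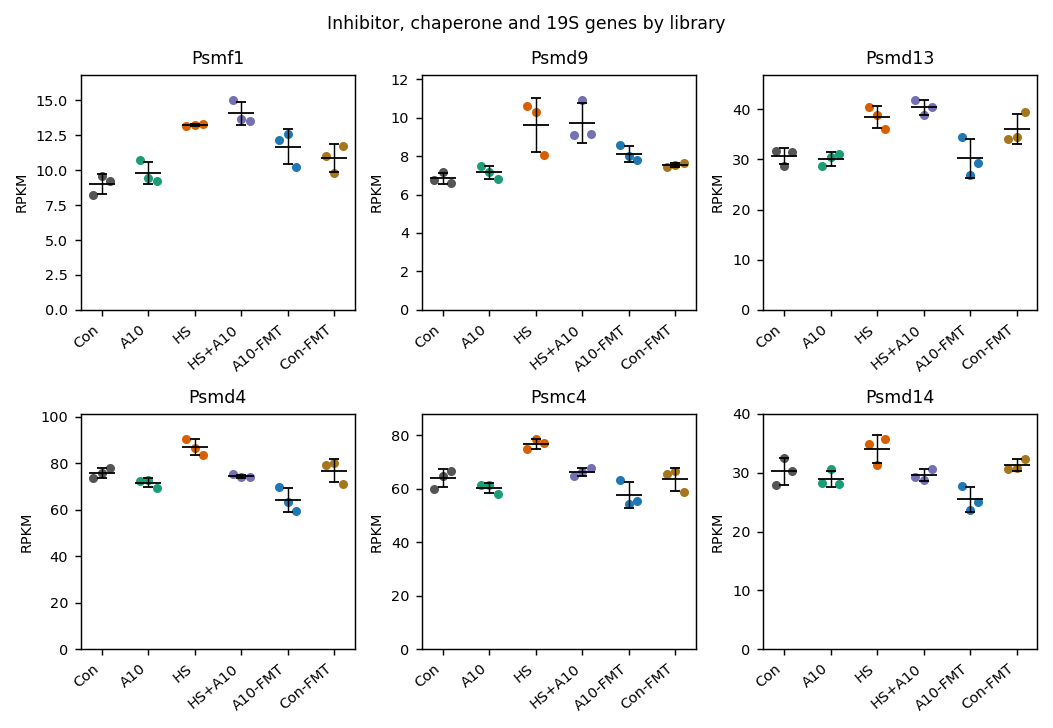
RPKM per library (points) with group mean and SD (bars) for Psmf1, Psmd9, Psmd13, Psmd4, Psmc4 and Psmd14 in the 6 groups. Psmf1 had 13.1 to 15.1 RPKM in the 6 HS and HS+A10 libraries and 8.22 to 10.7 RPKM in the 6 Con and A10 libraries, and Psmd4 had 59.3 to 69.7 RPKM in A10-FMT against 83.5 to 90.4 RPKM in HS.

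Promoter windows from 250 bases before to 50 after the start were found for 42 of the 50 genes, in 45 windows, in the RefSeq annotation of GRCm38.p6. They were searched on both strands for TGACNNNGC, the core of the antioxidant response element that NRF1 and NRF2 bind, for TTCNNNGAA, the core of a gamma-activated sequence, for the core of an interferon response element, a repeat of GAAA with 2 free bases between, and for CCAAT. TGACNNNGC was in 6 of 45 windows (13.3%), against 12.4% of all 32851 windows. TTCNNNGAA was in 6.67% against 8.30%, the interferon response core in 11.1% against 3.44% and CCAAT in 33.3% against 37.4%. The 6 windows with TGACNNNGC were those of Psmb5, Psmb6, Psmc6, Psmd9, Psmd12 and Psme4. The 5 windows with the interferon response core were those of Psmb3, Psmd4, Psmd9, Psme1 and Psmg4. The windows of the immunoproteasome genes Psmb8, Psmb9 and Psmb10 did not hold it. A match is a string of letters in the window and no measured binding.

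The window stretches outside annotated exons are shown for Psmf1 and Psmd9, the genes called in both comparisons of diet and STZ under most settings. Capitals mark TGACNNNGC and the interferon response core in Psmd9, which begin 31 and 159 bases before the start, and Psmf1 held none of the 4 motifs.
Psmf1, chr2:151741311-151741560, minus strand: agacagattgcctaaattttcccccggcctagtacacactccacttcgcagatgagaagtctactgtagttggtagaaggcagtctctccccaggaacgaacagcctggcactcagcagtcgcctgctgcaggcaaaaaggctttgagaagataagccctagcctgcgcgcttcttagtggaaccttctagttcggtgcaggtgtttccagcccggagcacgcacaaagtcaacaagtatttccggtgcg
Psmd9, chr5:123227940-123228189, plus strand: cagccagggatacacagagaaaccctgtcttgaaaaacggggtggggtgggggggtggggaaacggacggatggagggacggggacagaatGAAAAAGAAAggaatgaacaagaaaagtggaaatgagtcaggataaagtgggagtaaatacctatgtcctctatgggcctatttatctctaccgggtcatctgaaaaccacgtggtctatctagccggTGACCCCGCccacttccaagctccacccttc

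In HS+A10 against A10, 6 of 47 proteasome genes were called higher and 1 lower, beside 13.6% and 7.28% of all tested genes. The genes called higher were Psmf1, Psmd13, Psmd9, Psme4, Psmd8 and Psmd2, and the gene called lower was the immunoproteasome subunit Psmb10. Psmf1, Psmd9, Psmd13 and Psmd2 were thus called higher under diet and STZ with and without AOS, in comparisons that share no library. No constitutive core gene was called on the deposited scale, and the median change of the 14 core genes was -0.04, against 0.07 for the 17 regulatory particle genes and 0.04 for all tested genes. Median scaling gave 5 genes higher and 5 lower, 10.6% each, beside 12.2% and 11.3% of all genes. Those higher were Psmf1, Psmd13, Psmd9, Psmd8 and Psmc1, and those lower were Psmb10, the activator Psme2, the ATPase Psmc5, the lid subunit Psmd11 and the constitutive core subunit Psma4 (limma adjusted p = 0.0448), so regulatory particle genes were called in both directions, while Psmd2 and Psme4 were no longer called. Leaving out any A10 library, HS+A10 replicate 2 or HS+A10 replicate 3 left 3 genes, each time Psmf1, Psmd9 and Psmd13.

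The difference between these effects of diet and STZ was called for none of the 47 genes (2 at an unadjusted p under 0.05, limma), and for 1 of all 10204 genes (0.00980%). Without Con replicate 3 and A10 replicate 3, Psmf1 and Psmd9 remained called in HS against Con, and Psmf1, Psmd9 and Psmd13 in HS+A10 against A10.

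Mice that received microbiota of AOS-dosed donors had lower levels of regulatory particle genes than HS mice. In A10-FMT against HS, 21 of 47 genes were called lower and none higher, 44.7% of the proteasome genes against 21% of all tested genes called lower and 2.09% called higher. Among the 21 were all 6 ATPases, all 3 non-ATPase base subunits and 6 of 8 lid subunits, 15 of 17 regulatory particle genes, with a median log2 change of -0.31. Of the 14 constitutive core genes, Psma1, Psma2, Psmb2 and Psmb5 were called, with a median of -0.14 for the class, and the activators Psme3 and Psme4 were called too. The median over all tested genes was -0.16. After median scaling Psmd4 and Psmc4 were called lower and no gene higher, beside 5.06% and 6.26% of all genes, and the median of the 17 regulatory particle genes was -0.12.

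Psmd4, the subunit that captures ubiquitin chains, had 90.4, 86.6 and 83.5 RPKM in HS and 69.7, 63.3 and 59.3 RPKM in A10-FMT, without overlap. Its log2 change was -0.43 ± 0.071 (limma adjusted p = 0.00133), and -0.24 after median scaling (adjusted p = 0.0323, limma). Psmc4, an ATPase of the base, had 74.8, 78.6 and 77.2 RPKM in HS and 63.3, 54.1 and 55.4 RPKM in A10-FMT. It fell by 0.41 ± 0.074 (limma adjusted p = 0.00201), and its scaled change was -0.22 (adjusted p = 0.0423, limma). For both genes the highest A10-FMT library was replicate 1, which still lay below every HS library.

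Psmd14, which cuts ubiquitin chains off substrates before degradation, had 34.9, 31.3 and 35.7 RPKM in HS and 27.8, 23.7 and 25.0 RPKM in A10-FMT. The change was -0.40 ± 0.077 (limma adjusted p = 0.00311) and -0.21 after median scaling (adjusted p = 0.0604, limma). Psmc3, a further ATPase, had 80.1, 73.5 and 73.7 RPKM in HS and 66.2, 58.1 and 57.0 RPKM in A10-FMT, a change of -0.32 ± 0.070 (limma adjusted p = 0.00574). No A10-FMT library reached the HS range in either gene. The count of 21 genes fell to 9 without A10-FMT replicate 2 or replicate 3 and to 11 without HS replicate 2.

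Recipients of control microbiota differed less from HS. In Con-FMT against HS, 4 of 47 genes were called lower and none higher, against 19% and 4.61% of all tested genes. The median change was -0.08 over the 47 and -0.12 over all genes. They were Psmc4, with 65.4, 66.5 and 58.7 RPKM in Con-FMT (-0.27 ± 0.074, limma adjusted p = 0.0149), Psmd9, with 7.45, 7.52 and 7.63 RPKM (-0.31 ± 0.090, limma adjusted p = 0.0216), the lid subunit Psmd11, with 51.9, 48.5 and 47.7 RPKM (-0.32 ± 0.10, limma adjusted p = 0.032), and Psmf1, with 11.02, 9.78 and 11.8 RPKM (-0.27 ± 0.088, limma adjusted p = 0.0404). All 4 lay below every HS library, but they were picked by their p-values in these same libraries. The share of all genes that did so was not computed. After median scaling none was called (7 at an unadjusted p under 0.05, limma), beside 12.2% of all genes lower and 8.41% higher. Leaving out HS replicate 1, HS replicate 3, Con-FMT replicate 1 or Con-FMT replicate 3 left 2 genes and leaving out HS replicate 2 left Psmc4. Without Con-FMT replicate 3, the library with pancreas transcripts, the genes were Psmd9 and Psmf1.

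The recipient groups were also compared with each other. Both comparisons above share the HS libraries, and each shares its recipient libraries with this one. In A10-FMT against Con-FMT, 4 of 47 genes were called lower and none higher, beside 12% and 6.72% of all tested genes. Changes lay below 0 in 43 of 47 proteasome genes, beside 55.5% of all tested genes. Among the 43 were all 17 regulatory particle genes and all 14 constitutive core genes. The medians of these classes were -0.19 and -0.12, against -0.03 for all genes. The 4 called genes were all of the regulatory particle. Psmd14 had 30.7, 30.9 and 32.4 RPKM in Con-FMT (-0.29 ± 0.077, limma adjusted p = 0.0173) and the ATPase Psmc2 had 52.6, 53.0 and 52.0 RPKM there against 49.2, 41.0 and 40.5 RPKM in A10-FMT (-0.27 ± 0.073, limma adjusted p = 0.0182). Psmd4 and Psmd6, a lid subunit, changed by -0.26 ± 0.071 (limma adjusted p = 0.0199) and -0.29 ± 0.086 (limma adjusted p = 0.0282). None of the 4 overlapped between the groups, but they too were picked by their p-values in these libraries. The share of all genes without overlap was not computed here either. After median scaling Psmd14, Psmc2 and Psmd6 were called lower, beside 9.39% of all genes lower and 12.8% higher. The count was 10 without A10-FMT replicate 1, 1 without A10-FMT replicate 2 or 3, and 2 without Con-FMT replicate 1 or 3.

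Few proteasome genes were called when AOS was given directly. In HS+A10 against HS, 1 of 47 genes was called lower and none higher (4.37% and 2.95% of all tested genes). This was the ATPase Psmc5, with 52.3, 60.8 and 53.5 RPKM in HS and 42.9, 47.6 and 48.0 RPKM in HS+A10, a change of -0.26 ± 0.075 (limma adjusted p = 0.0487) that was not called after median scaling (adjusted p = 0.0663, limma), where 3.49% of all genes were lower and 5.67% higher. It was not called without HS replicate 2, HS replicate 3 or any HS+A10 library either. The median change was -0.14 for the 17 regulatory particle genes, -0.04 for the 14 constitutive core genes and -0.03 for all tested genes. Of the 17, 15 lay below 0, beside 56.9% of all genes. The 3 immunoproteasome genes changed by -0.54 to -0.43 without a call. In A10 against Con, no proteasome gene was called (1 at an unadjusted p under 0.05, limma), beside 5 genes higher and 2 lower in the whole table (0.0490% and 0.0196%). Median scaling also called none of the 47 (5 at an unadjusted p under 0.05, limma), beside 0.0490% of all genes higher and 0.0294% lower.

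**Figure D3:**
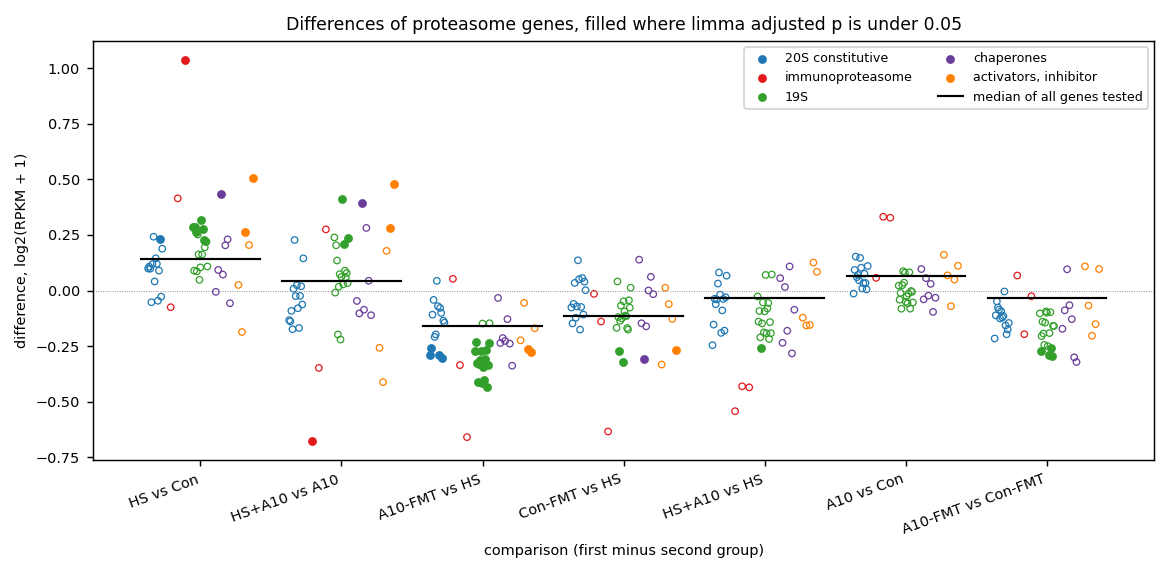
Difference in log2(RPKM + 1) of each tested proteasome gene (points, coloured by class, filled where limma's adjusted p was under 0.05) in the 7 comparisons, first minus second group, with the median of all 10204 tested genes (black lines). Psmc3ip is not plotted. In A10-FMT against HS, 15 of 17 19S genes are filled and lie below the median of all genes (-0.16).

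Of the 3 immunoproteasome genes, Psmb9 was called in HS against Con. Psmb9, the counterpart of the caspase-like core subunit Psmb6, had 26.5, 18.5 and 22.0 RPKM in Con and 49.0, 36.6 and 55.7 RPKM in HS. All HS libraries lay above all Con libraries, and the log2 change was 1.04 ± 0.31 (limma adjusted p = 0.0326), the largest of the 47 genes in this comparison. After median scaling it was 0.86 (adjusted p = 0.118, limma), and the call was also lost without any 1 library other than HS replicate 2 (0.91 to 1.16, limma adjusted p = 0.0555 to 0.0989). Psmb8, the counterpart of the chymotrypsin-like subunit Psmb5, had 26.7, 23.1 and 26.4 RPKM in Con and 38.3, 28.2 and 36.8 RPKM in HS, a change of 0.41 ± 0.27 that was not called (limma adjusted p = 0.294). Psmb10, the counterpart of the trypsin-like subunit Psmb7, had 16.4 to 22.2 RPKM in Con and 17.1 to 19.8 RPKM in HS, a change of -0.07 ± 0.21 (limma adjusted p = 0.831).

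With AOS, Psmb10 alone of the 3 was called. It had 19.5, 22.9 and 18.7 RPKM in A10 and 15.3, 11.1 and 11.1 RPKM in HS+A10, a log2 change of -0.67 ± 0.21 (limma adjusted p = 0.0362) that was still called after median scaling (-0.73, adjusted p = 0.0337, limma). The call was lost without any A10 library, HS+A10 replicate 2 or HS+A10 replicate 3. Its HS+A10 libraries also lay below every HS library. Psmb8 and Psmb9 changed by -0.35 ± 0.27 and 0.27 ± 0.31 in this comparison and were not called (limma adjusted p = 0.403 and 0.572).

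The ratio of each immunoproteasome gene to its constitutive counterpart was compared within libraries, in 21 exact two-sided permutation tests of 3 libraries against 3, whose smallest possible p is 0.1. Psmb9 over Psmb6 was 0.290, 0.180 and 0.201 in Con and 0.447, 0.380 and 0.607 in HS, 2.14-fold higher without overlap (exact p = 0.1, adjusted p = 0.485). Psmb10 over Psmb7 was 0.153, 0.195 and 0.154 in A10, 0.148, 0.135 and 0.146 in HS, and 0.115, 0.0838 and 0.0786 in HS+A10. It was lower in HS+A10 than in A10 and than in HS without overlap, 0.549-fold and 0.639-fold (exact p = 0.1 and adjusted p = 0.485 each). The groups overlapped in the other 18 tests.

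Con-FMT replicate 2 held the highest level of every immunoproteasome gene, with 59.1 RPKM of Psmb8, 58.8 of Psmb9 and 27.9 of Psmb10, against 18.5 to 26.8, 19.7 to 22.1 and 13.1 to 16.5 RPKM in the other Con-FMT libraries. Of the interferon and peptide loading list, B2m, the light chain of MHC class I, had 2987 RPKM there against 2151 and 1858 RPKM, Tap1 had 13 RPKM against 6.17 and 8.58 RPKM and Tap2 21.1 against 14.2 and 13.99 RPKM. Irf1, Irf9, Stat2 and Erap1 were instead highest in Con-FMT replicate 3 of this group, as for Irf1 with 22.05 RPKM against 13.2 in replicate 2. The rest of this list was highest in replicate 2 of the group. The Kupffer cell and macrophage markers summed to 102 RPKM in replicate 2 and to 65.8 and 52.5 RPKM in the others, and Marco, a macrophage scavenger receptor, had 8.54 against 1.54 and 1.69 RPKM. The part of these cells in the immunoproteasome levels was not tested. Psmb8 and Psmb9 were not called in Con-FMT against HS with all libraries. Without this library both were called lower in Con-FMT, but it was singled out by its high values of these genes. That choice by itself lowers the mean and spread of the group, so these calls are no test.

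**Figure D4:**
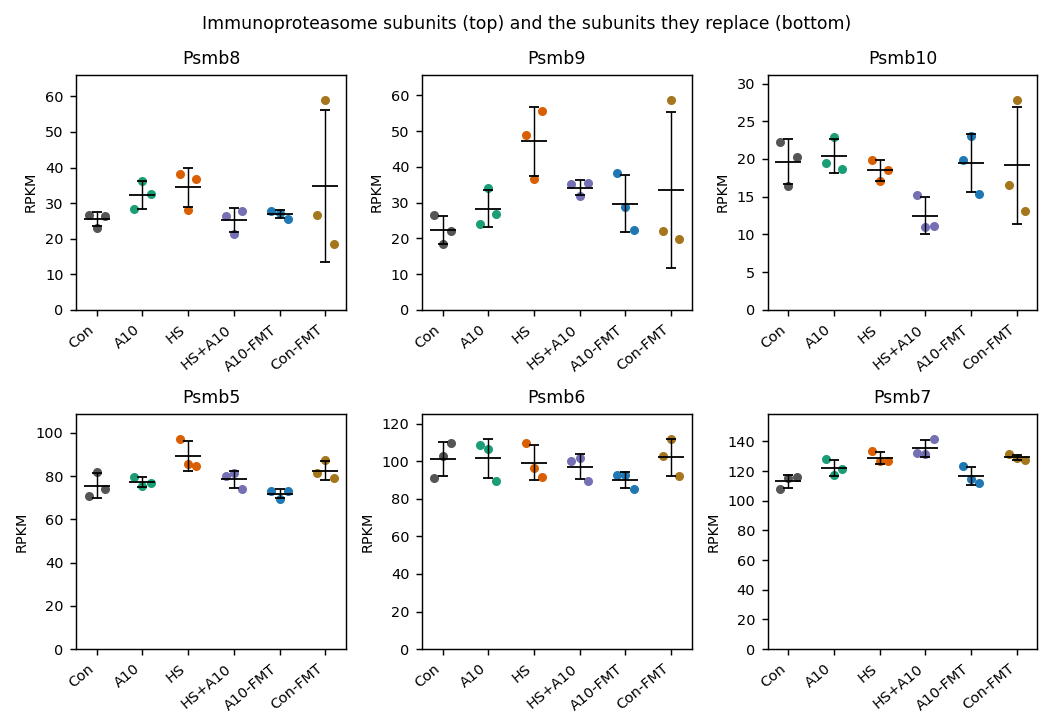
RPKM per library (points) with group mean and SD (bars) for Psmb8, Psmb9 and Psmb10 in the top row and their constitutive counterparts Psmb5, Psmb6 and Psmb7 in the bottom row. Psmb9 had 36.6 to 55.7 RPKM in HS and 18.5 to 26.5 RPKM in Con, Psmb10 had 11.1 to 15.3 RPKM in HS+A10, and Con-FMT replicate 2 holds the highest point of the 3 upper panels.

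Of the constitutive counterparts, Psmb5 alone was called under diet and STZ, with 70.8, 82.1 and 74.1 RPKM in Con and 97.2, 85.7 and 84.6 RPKM in HS (0.23 ± 0.077, limma adjusted p = 0.0467). In A10-FMT it had 73.1, 69.4 and 73.1 RPKM (-0.30 ± 0.077 against HS, limma adjusted p = 0.0121). Neither call held after median scaling (adjusted p = 0.756 and 0.389, limma). Psmb6 ranged from 85.0 to 112 RPKM and Psmb7 from 108 to 142 RPKM over the 18 libraries, and neither was called in any of the 7 comparisons. Psmb5, Psmb6 and Psmb7 have annotated pseudogenes that could share reads with them.

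The promoter stretches of these genes are set beside each other because Psmb8 and Psmb9 are the counterparts of Psmb5 and Psmb6 at the same catalytic sites. In Psmb5 and Psmb6 the capitals mark TGACNNNGC, 47 and 9 bases before the start, and the stretch outside annotated exons is shown. The windows of Psmb8 and Psmb9 lie within annotated exons, so 30 bases around the match are shown, with TTCNNNGAA in capitals in Psmb8 and CCAAT, on the opposite strand, in Psmb9.
Psmb5, chr14:54618023-54618245, minus strand: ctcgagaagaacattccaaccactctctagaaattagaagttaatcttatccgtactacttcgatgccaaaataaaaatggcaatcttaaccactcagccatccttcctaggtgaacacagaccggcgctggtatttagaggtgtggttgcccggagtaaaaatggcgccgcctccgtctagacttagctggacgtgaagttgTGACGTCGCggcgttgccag
Psmb8, chr17:34198088-34198117, plus strand: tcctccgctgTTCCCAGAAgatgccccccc
Psmb6, chr11:70525107-70525356, plus strand: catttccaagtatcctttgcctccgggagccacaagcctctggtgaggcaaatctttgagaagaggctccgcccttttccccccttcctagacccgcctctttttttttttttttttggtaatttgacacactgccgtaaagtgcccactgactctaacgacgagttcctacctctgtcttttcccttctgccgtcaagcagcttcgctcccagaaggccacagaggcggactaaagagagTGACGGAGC
Psmb9, chr17:34187321-34187350, minus strand: gcgcagccgctgATTGGaaagccgagcccc

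The PA28 genes Psme1 and Psme2, which share interferon control with the immunoproteasome, were not called in any comparison on the deposited scale. After median scaling Psme2 was called lower in HS+A10 than in A10 (-0.47, limma adjusted p = 0.0475), against -0.41 ± 0.15 (limma adjusted p = 0.0616) before it. Psme2 had 92.2, 100.2 and 95.04 RPKM in Con and 86.0, 80.0 and 86.2 RPKM in HS, the only proteasome gene whose HS libraries all lay below Con (4.17% of all tested genes did so). In 26 proteasome genes, 55.3%, all HS libraries lay above Con, as in 32.6% of all tested genes. Psme3, which encodes the nuclear PA28 gamma cap, had 26.4, 28.1 and 26.9 RPKM in Con and 28.4, 34.8 and 35.5 RPKM in HS (0.26 ± 0.081, limma adjusted p = 0.0359). Psme4, the PA200 activator, had 15.7, 14.9 and 15.2 RPKM in A10 and 16.4, 19.4 and 20.6 RPKM in HS+A10 (0.28 ± 0.089, limma adjusted p = 0.0368). Neither call held after median scaling. Of the 7 assembly chaperones, Psmd9 alone was called in any comparison.

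The partners of the proteasome were taken as a list of 35 symbols for ubiquitin genes, shuttle factors and regulators, of which 30 were found and tested. In HS against Con 12 were higher and none lower, 40% against 15.9% of all genes, and after median scaling 1 was higher and 1 lower. In HS+A10 against A10, 6 were higher and 3 lower, 20% and 10% against 13.6% and 7.28% of all genes, and 6 and 5 after scaling. In A10-FMT against HS, 11 were lower and none higher, 36.7% lower against 21% of all genes, and 1 was lower after scaling. In Con-FMT against HS 4 were lower, 13.3% against 19% of all genes, and 2 were higher and 3 lower after scaling. In HS+A10 against HS 1 was lower, 3.33% against 4.37%, and 1 was higher and 1 lower after scaling. In A10-FMT against Con-FMT 7 were lower and 1 higher, 23.3% and 3.33% against 12% and 6.72%, and 3 and 1 after scaling. In A10 against Con none was called on either scale (limma). Median scaling also changed the background. Upward and downward it was 3.90% and 4.76% for HS against Con, and 12.2% and 11.3% for HS+A10 against A10. For A10-FMT against HS it was 6.26% and 5.06%, and for Con-FMT against HS 8.41% and 12.2%. For HS+A10 against HS it was 5.67% and 3.49%, and for A10-FMT against Con-FMT 12.8% and 9.39%. The list was not tested against these shares.

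The regulators of proteasome genes were in this list. Nfe2l1, which encodes NRF1, had 20.4, 23.5 and 22.1 RPKM in Con, 27.7, 27.8 and 26.3 in HS, 23.3, 22.1 and 23.0 in A10, and 30.7, 31.3 and 28.4 in HS+A10. Every HS library lay above every Con library and every HS+A10 library above every A10 library, by a log2 change of 0.30 ± 0.078 (limma adjusted p = 0.0176) without AOS and 0.39 ± 0.078 (limma adjusted p = 0.00302) with it. Ddi2, its protease, changed by 0.55 ± 0.18 (limma adjusted p = 0.0433) and 0.93 ± 0.18 (limma adjusted p = 0.00206). Nfe2l2, which encodes the related stress factor NRF2, had 23.3, 25.9 and 24.8 RPKM in Con and 40.5, 46.4 and 42.02 in HS, a change of 0.78 ± 0.10 (limma adjusted p = 0.000397), and 0.72 ± 0.10 in HS+A10 against A10 (limma adjusted p = 0.00032).

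After median scaling, Nfe2l2 was called in both comparisons, while Nfe2l1 and Ddi2 were called with AOS (0.33 and 0.87, limma adjusted p = 0.00147 and 0.00176) and not without it (adjusted p = 0.23 and 0.18). Without Con replicate 3 and A10 replicate 3, Nfe2l1 and Ddi2 were not called in HS against Con. Uchl5, a deubiquitinase that docks on the regulatory particle, and Ube3c, a ligase that extends chains on bound substrates, were also called higher in both comparisons on the deposited scale, and after median scaling with AOS (limma adjusted p = 0.0195 and 0.0194) and not without it (0.15 and 0.121). In A10-FMT against HS, the shuttle factor Ubqln1 fell by 0.58 ± 0.10 (limma adjusted p = 0.00209) and the deubiquitinase Usp14 by 0.37 ± 0.083 (limma adjusted p = 0.0072). After median scaling Ubqln1 was called (-0.39, limma adjusted p = 0.0199) and Usp14 was not (-0.19, limma adjusted p = 0.113).

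Markers of other cell types were read beside these results. Of 8 Kupffer cell and macrophage markers, 5 were called lower in A10-FMT than in HS, beside 21% of all genes, and only Marco after median scaling. The list summed to 46.2 to 58.7 RPKM against 68.4 to 115 RPKM, without overlap. In HS against Con none of the 8 was called, and the sums were 68.4 to 115 and 64.3 to 96.7 RPKM. Of 14 leukocyte markers 4 were abundant enough to test, and the list summed to 14.9 to 17.97 RPKM in HS, 10.9 to 16.6 in Con and 7.90 to 12.1 in A10-FMT. Of the 14 interferon and peptide loading genes, 5 were called higher in HS than in Con, among them Tap1, Tap2, Gbp2 and Irf9, 2 lower in HS+A10 than in A10 and 4 lower in A10-FMT than in HS. After median scaling none of the 14 was called in HS against Con. On that scale 2 were lower in HS+A10 than in A10 and 1 in A10-FMT than in HS. Over all tested genes, the shares of upward and downward calls as deposited were 15.9% and 1.87% in HS against Con. They were 13.6% and 7.28% in HS+A10 against A10, and 2.09% and 21% in A10-FMT against HS. In the same order, median scaling gave 3.90% and 4.76%, 12.2% and 11.3%, and 6.26% and 5.06%. The endothelial, stellate and hepatocyte counts below have the same background. No list was tested against these shares. Of 5 endothelial markers 1 was called higher in HS than in Con and 4 in HS+A10 than in A10, with sums of 51.4 to 61.3 RPKM in HS+A10 and 35.6 to 44.6 RPKM in A10. Of 5 stellate cell markers 1 and 2 were called higher, and of the 8 hepatocyte markers 2 were higher and 2 lower in HS than in Con and 1 higher and 4 lower in HS+A10 than in A10. After median scaling the endothelial, stellate and hepatocyte counts in HS+A10 against A10 were the same, and in HS against Con 1 hepatocyte marker was higher and 2 were lower and no endothelial or stellate marker was called. The part of these cells in the proteasome results was not tested, and in whole liver fewer cells of a type and less RNA per cell cannot be told apart.

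The genes lie on 16 chromosomes in the GRCm38 annotation, the build named in the submitters' processing notes as mm10. Psmb8 (chr17:34197721-34201454, plus strand) and Psmb9 (chr17:34181987-34187764, minus strand) flank the peptide transporter gene Tap1 (chr17:34187553-34197225, plus strand) in the MHC region. The annotated Psmb9 and Tap1 genes share 212 bases, so reads there cannot be told apart without strand. Tap1 had 4.71, 5.70 and 5.04 RPKM in Con and 11.2, 7.35 and 13.2 RPKM in HS, a change of 0.88 ± 0.21 (limma adjusted p = 0.0127). Like Psmb9, it was higher in every HS library than in every Con library, and it was not called after median scaling (adjusted p = 0.0506, limma). Psmb10 lies on chromosome 8, apart from both.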

How the data were processed

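Liver RNA-seq of 18 libraries was deposited as 1 table of RPKM values, which the authors computed per gene after aligning reads to reference genes with SOAPaligner. The submitters' processing notes name the mm10 build and Bowtie 0.12.2, and strandedness and the treatment of reads that match several genes are not given in the sources used here. RPKM were read as deposited, and all columns mapped to a labelled library. The test used log2(RPKM + 1) of genes averaging 1 RPKM or more, so fold changes of low genes are understated, with limma 3.58.1 in R 4.3.3 (1 mean per group, variance trend, all 18 libraries, two-sided, Benjamini-Hochberg adjusted p under 0.05 over all 10204 genes). A fold change is thus on the log2(RPKM + 1) scale. Scaling to the same median divides out the median RPKM of the tested genes in a library. Ratios of single genes were compared by exact permutation tests. The study's DEGseq test needs counts and was not used here. The test was also run on simulated data with independent noise per gene and the spread of these libraries. The simulation held no scaling shift between libraries, so it cannot check calls that depend on the scaling.

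Deviations of same-numbered libraries from their group means correlated weakly across groups (45 correlations, -0.13 to 0.26, 12 of them over 0.1). The highest were 0.23 and 0.26, between HS and HS+A10 in replicates 1 and 3. Differently numbered libraries were not compared in this way, so pairing was not settled. Named in each comparison were Psmb5 to Psmb10, Psme1 and Psme2, and the 4 genes per direction with the smallest adjusted p. Other members were chosen after their values were seen. The members and lists of ubiquitin partners, interferon genes and hepatocyte, leukocyte, Kupffer cell, endothelial, stellate and exocrine pancreas markers were chosen with earlier results of these data known. Alternatives were another pseudocount (0.1), other filters, median and quantile scaling, separate fits, no trend, a replicate block, the study's threshold and leaving out libraries. Gene positions are from GENCODE M21 and promoters from RefSeq, both on GRCm38. 26 symbols had been turned into dates in the table and name no gene here. Values of some listed genes are not reported here.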

Additional observations from a re-analysis of the deposited data

How the results depend on the processing

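The count of proteasome genes called in HS against Con (11) was 1 with each library scaled to the same median, 1 with quantile normalization, 2 with only the compared groups in the fit and 0 at the study's threshold (adjusted p of 0.001 and a log2 change of 1), and 3 to 8 without 1 library. In HS+A10 against A10 (7) it was 0 at that threshold and 3 to 6 without 1 library. Leaving out Con replicate 3 and A10 replicate 3 together, a choice made after seeing the data, gave 2 and 3. In A10-FMT against HS (21) the count was 2 after median scaling, 3 with quantile normalization, 3 with only the compared groups and 0 at the threshold, and 9 to 23 without 1 library. In Con-FMT against HS (4) it was 0, 2, 0 and 0 under the same settings, and 1 to 5 without 1 library. In HS+A10 against HS (1) it was 0 with a pseudocount of 0.1, with median scaling, quantile normalization, only the compared groups, the replicate block and the threshold, and 0 to 2 without 1 library. In A10-FMT against Con-FMT (4) it was 0 with quantile normalization, 0 with only the compared groups and 0 at the threshold, and 1 to 10 without 1 library. It was 0 throughout for A10 against Con and for the difference of the diet and STZ effects. Calls over all genes moved with the setting too. In A10-FMT against HS, 21% of all genes were called lower as deposited and 5.06% after median scaling. In HS against Con, 15.9% and 3.90% were called higher. Shares of all genes under the other settings are not given here, so a change in count may hold for the whole table.

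The replicate block used numbers that are not known to pair the libraries. With it the counts were 9 in HS against Con, 6 in HS+A10 against A10, 17 in A10-FMT against HS, 3 in Con-FMT against HS and 4 in A10-FMT against Con-FMT.

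The only named log2 change that reversed was Psmb10 in HS against Con, to 0.0161 without Con replicate 1. Among 1038 alternative values of 67 named changes, 669 kept direction and call, 367 lost the call and 1 gained it. Of 147 alternative values of the 21 ratios, from leaving out 1 library or adding 1 RPKM to both genes, 128 kept direction and 19 reversed. The ranges without 1 library that crossed 0 were, for Psmb8 over Psmb5, -0.15 to 0.0532 in A10-FMT against HS, -0.47 to 0.30 in Con-FMT against HS and -0.34 to 0.43 in A10-FMT against Con-FMT, for Psmb9 over Psmb6, -0.0626 to 0.58 in A10-FMT against Con-FMT, and for Psmb10 over Psmb7, -0.33 to 0.21 in Con-FMT against HS, -0.19 to 0.0766 in A10 against Con and -0.00701 to 0.53 in A10-FMT against Con-FMT. The causes were not tested. The read number is unknown, so counting error could not be set beside these values.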
